A study of Mus musculus with 24 samples.

Results

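The genes described here are 28 genes of sterol synthesis and cholesterol handling in mouse retinal organoids, taken as the rows of the gene table that carry the 28 listed symbols. All 28 were among the 33846 genes of the table, and all 28 passed the filter on low counts that left 16792 genes for testing. They comprise 18 enzymes of the synthesis pathway, 4 regulators, and 6 genes of cholesterol uptake, transport and export. Organoids were grown from wild-type mouse embryonic stem cells, of an Nrl-GFP line and of the R1 clone, and the labels do not say which clone gave which sample. Their polyadenylated RNA was sequenced in bulk as 24 libraries, which the design text calls biological replicates. In RWB, optic cups dissected from the organoids were kept in a rotating-wall bioreactor, a slowly turning chamber that keeps tissue afloat, and were sampled at day 18 (n = 2), day 22 (n = 3) and day 25 (n = 3) of differentiation. In SSCd, dissected optic cups were kept in static suspension and sampled at day 18, day 22 and day 28 (n = 3 each). In SSCi, intact organoids were kept in static suspension and sampled at day 18 (n = 2), day 25 (n = 2) and day 32 (n = 3). All 3 cultures received N2 supplement, taurine, 9-cis retinal and insulin-like growth factor. Fetal bovine serum at 2% by volume, B27 without vitamin A and non-essential amino acids were added from day 18 in RWB and SSCd, and from day 26 in SSCi. The SSCi libraries of day 18 and day 25 therefore came before serum, and in RWB and SSCd the day of culture and the days spent in serum cannot be told apart.

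Cells make cholesterol from acetyl-CoA through the mevalonate pathway, then close squalene to lanosterol and trim that ring in a series of steps at the endoplasmic reticulum. When membrane sterol is low, Scap escorts the SREBP transcription factors encoded by Srebf1 and Srebf2 out of the endoplasmic reticulum, and the processed factors switch on synthesis genes and Insig1, whose product holds Scap back again. Oxysterols made from surplus cholesterol activate liver X receptors, which switch on the exporters Abca1 and Abcg1 and the ligase Mylip, a brake on lipoprotein uptake. In the retina, photoreceptor outer segments are built of membrane that is renewed throughout life, and neurons and glia both make sterol and take it up from lipoproteins.

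Promoter sequence is shown for 5 genes on which the results turn, 3 that fell with days in culture (Hmgcs1, Nsdhl and Insig1, each a known SREBP target), the lysosomal carrier Npc2, which fell, and the exporter Abca1, which rose. Each line gives the 250 bases before the RefSeq start on GRCm38.p6, 5′ to 3′ on the gene's strand. The windows are chr13:119690101-119690350 (+) for Hmgcs1, chrX:72918271-72918520 (+) for Nsdhl, chr5:28071162-28071411 (+) for Insig1, chr12:84773113-84773362 (-) for Npc2 and chr4:53159896-53160145 (-) for Abca1. Capitals mark matches on either strand to the sterol regulatory element TCACNCCAC, to the CCAAT box (CCAAT, or ATTGG on the other strand) and to the GC box (GGGCGG, or CCGCCC on the other strand).
Hmgcs1: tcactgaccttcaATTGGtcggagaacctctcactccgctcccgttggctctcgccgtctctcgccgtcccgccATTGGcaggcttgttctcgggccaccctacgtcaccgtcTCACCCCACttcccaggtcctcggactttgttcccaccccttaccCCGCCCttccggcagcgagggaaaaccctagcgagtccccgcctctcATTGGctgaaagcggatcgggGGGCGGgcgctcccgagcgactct
Nsdhl: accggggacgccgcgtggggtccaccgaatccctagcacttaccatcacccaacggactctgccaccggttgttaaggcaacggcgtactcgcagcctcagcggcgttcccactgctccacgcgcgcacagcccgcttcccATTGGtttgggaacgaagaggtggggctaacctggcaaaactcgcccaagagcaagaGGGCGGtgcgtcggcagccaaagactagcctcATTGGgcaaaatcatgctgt
Insig1: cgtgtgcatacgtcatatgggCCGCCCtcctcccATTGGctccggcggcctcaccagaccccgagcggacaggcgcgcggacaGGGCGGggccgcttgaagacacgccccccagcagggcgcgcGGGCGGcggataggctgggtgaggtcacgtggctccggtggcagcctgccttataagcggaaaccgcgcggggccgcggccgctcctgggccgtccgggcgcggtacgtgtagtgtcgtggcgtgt
Npc2: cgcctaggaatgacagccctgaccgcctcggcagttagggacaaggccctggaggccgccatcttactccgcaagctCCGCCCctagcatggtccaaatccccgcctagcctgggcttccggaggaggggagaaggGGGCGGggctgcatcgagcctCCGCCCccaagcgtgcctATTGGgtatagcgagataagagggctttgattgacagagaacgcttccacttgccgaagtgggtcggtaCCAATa
Abca1: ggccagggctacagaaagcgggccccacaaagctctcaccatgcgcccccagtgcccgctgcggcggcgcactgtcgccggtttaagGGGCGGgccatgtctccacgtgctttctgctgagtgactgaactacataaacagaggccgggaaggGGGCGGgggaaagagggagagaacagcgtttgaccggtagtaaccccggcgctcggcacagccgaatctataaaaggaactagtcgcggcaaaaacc

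RefSeq promoters, each from 250 bases before to 50 bases after the start, were found for 22 of the 28 genes. Fdft1, Abcg1, Npc1, Stard4, Sqle and Fdps are named only. The sterol regulatory element was matched in 1 of these 22 genes, Hmgcs1, where TCACCCCAC began 137 bases before the start, and in 1.44% of all 27025 genes with a promoter. The CCAAT box was matched in 19 of the 22 genes (86.4%) and in 41.1% of all genes. The GC box was matched in 21 of the 22 genes (95.5%) and in 38.2% of all genes. Of the 5 promoters shown, Abca1 alone had no CCAAT match. The liver X receptor element named DR4 is a direct repeat of AGGTCA with 4 bases between its copies. Its exact letters were matched in 0 of the 22 and in 0.0148% of all genes. Copies that differ from these letters were not searched. With exact matches this rare, 0 of the 22 does not show that Abca1 or any other gene lacks such an element. A match is a run of letters in this window and says nothing of whether a factor binds there.

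Values are given as CPM (counts scaled to library size), scaled between libraries by TMM, the trimmed mean of M-values, from the deposited estimated counts. CPM are not divided by gene length, so levels are compared between libraries of a gene and not between genes. Total counts ranged from 13284632 to 21604446 per library. In these bulk samples, fewer cells of a type and less RNA per cell cannot be told apart. Replicate 1 of RWB day 22, RWB day 25, SSCd day 18 and SSCd day 22 had mitochondrial shares of 8.26% to 13.1% of counts, against 2.46% to 5.76% in the other 20 libraries. Replicate 1 of SSCi day 18 held 6349 CPM over 6 mesenchyme markers, against 25.8 CPM in replicate 2. Choroid plexus markers reached 1024 CPM in replicate 1 of RWB day 25, against 339 and 34.5 CPM in replicates 2 and 3.

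The mean level of sterol synthesis transcripts lay below that of day 18 at every later day in all 3 cultures. In RWB it was higher at day 25 than at day 22, and 4 of 18 enzymes were called lower at day 25 than at day 18, beside 14% of all genes. The uptake, transport and export genes did not move as a block. The last days differ between the cultures. In direct tests over shared days, no enzyme's change was called different between cultures by edgeR. The mean log2 CPM over the 18 synthesis enzymes in SSCd was 6.83 ± 0.028 at day 18, 5.996 ± 0.16 at day 22 and 5.73 ± 0.017 at day 28 (SD, n = 3 each). In SSCi it was 6.67 ± 0.14 at day 18 (n = 2), 6.13 ± 0.0037 at day 25 (n = 2) and 5.74 ± 0.066 at day 32 (n = 3). In RWB it was 6.72 ± 0.13 at day 18 (n = 2), 6.19 ± 0.20 at day 22 (n = 3) and 6.33 ± 0.23 at day 25 (n = 3). Every later library of each culture lay below both or all of its own day 18 libraries. The 3 RWB day 25 libraries were at 6.58, 6.13 and 6.27, and the highest of them was replicate 1, the library with the largest mitochondrial share and the most choroid plexus RNA. Set against its own day 18, the mean over the 6 handling genes changed by 0.35 ± 0.20 in SSCd at day 28, by 0.26 ± 0.098 in SSCi at day 32 and by -0.095 ± 0.23 in RWB at day 25, on the log2 scale (SD, n = 3 each). This mean pools opposite movements, and its positive sign in SSCd and SSCi rests on Abca1. The fitted log2 fold changes in SSCd and SSCi were 2.97 and 2.135 for Abca1 and -1.467 and -2.107 for Npc2. The difference between the synthesis mean and the handling mean was 1.43 ± 0.12 at day 18, 0.35 ± 0.15 at day 22 and -0.013 ± 0.21 at day 28 in SSCd. It was 0.98 ± 0.48 at day 18, 0.26 ± 0.042 at day 25 and -0.21 ± 0.037 at day 32 in SSCi, and 1.10 ± 0.12 at day 18, 0.49 ± 0.35 at day 22 and 0.80 ± 0.45 at day 25 in RWB. Only the change in this difference between groups is read here, since its zero point depends on gene lengths.

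**Figure D1:**
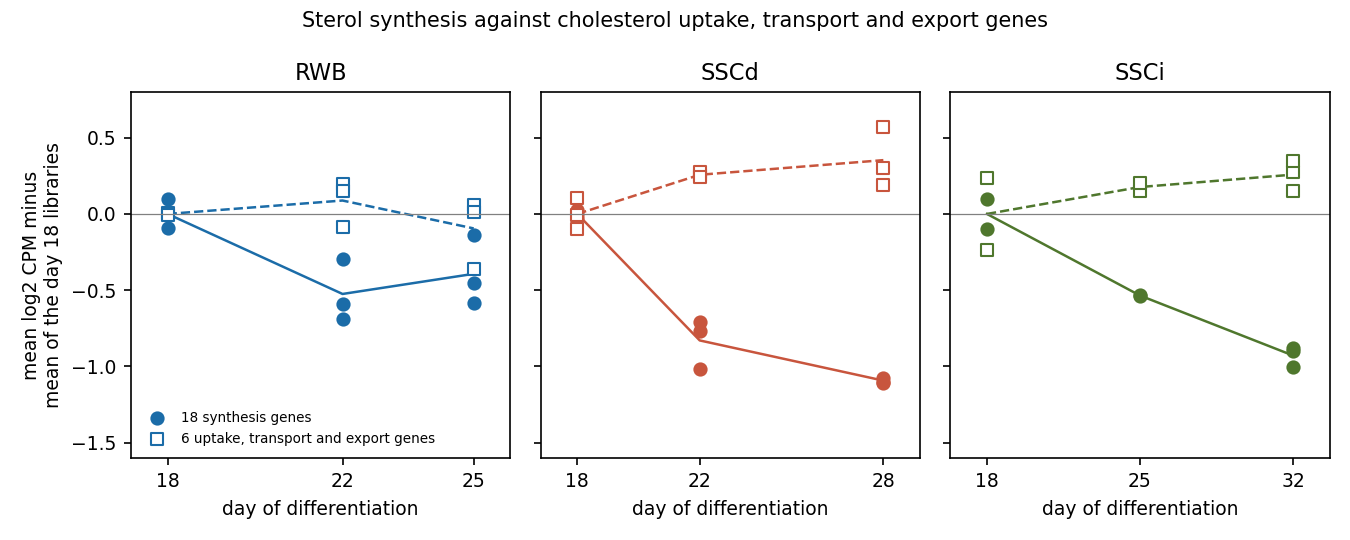
Mean log2 CPM per library of the 18 synthesis genes (filled circles) and the 6 uptake, transport and export genes (open squares), minus the mean of the same culture's day 18 libraries, against day of differentiation; lines join group means. Synthesis means lie 1.09 below day 18 in SSCd at day 28, 0.93 below in SSCi at day 32 and 0.39 below in RWB at day 25, while handling means lie between -0.095 and 0.35.

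The first enzymes of the mevalonate pathway fell in all 3 cultures. Acat2, the cytosolic thiolase that joins acetyl units, and Hmgcs1, the HMG-CoA synthase, were lower at the last day than at day 18 in all 3 cultures. Hmgcs1 had 549, 396 and 362 CPM in RWB at day 25, against 748 and 826 CPM at day 18. It had 189, 232 and 244 CPM in SSCd at day 28, against 780, 876 and 759 CPM at day 18. It had 217, 220 and 215 CPM in SSCi at day 32, against 805 and 897 CPM at day 18. The groups did not overlap in any culture, and the log2 fold changes were -0.85 ± 0.20 in RWB, -1.86 ± 0.19 in SSCd and -1.97 ± 0.20 in SSCi (SE, edgeR quasi-likelihood test, adjusted p = 0.00309, 3.18e-07 and 3.81e-07). Here and below, adjusted p-values are Benjamini-Hochberg values over all 16792 genes tested, and a gene is called when its value is under 0.05. Acat2 fell by 1.19 ± 0.18, 1.91 ± 0.17 and 1.97 ± 0.18 on the log2 scale in RWB, SSCd and SSCi (adjusted p = 5.91e-05, 8.53e-08 and 1.35e-07).

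Downstream of these, Mvd, the decarboxylase that makes isopentenyl diphosphate, Idi1, its isomerase, and Fdps, which builds farnesyl diphosphate, fell in SSCd and SSCi. Idi1 had 63.4, 77.4 and 67.8 CPM in SSCd at day 28, against 286, 179 and 170 CPM at day 18, a log2 fold change of -1.61 ± 0.30 (adjusted p = 0.000329). In RWB it had 280, 127 and 111 CPM at day 25, against 179 and 200 CPM at day 18, so that its groups overlapped and replicate 1 of day 25 lay above both day 18 libraries. In SSCi the Mvd call (-1.06) was lost without replicate 2 of day 18 (-0.50). The log2 fold changes of Mvd, Idi1 and Fdps in RWB were -0.61, -0.13 and -0.14, and none of them was called. The 2 kinases between Hmgcs1 and Mvd did not follow. Mvk was called in none of the 3 comparisons of last day with day 18. Pmvk, the phosphomevalonate kinase, had 66.9, 55.5 and 60.6 CPM in SSCi at day 32, against 32.1 and 44.3 CPM at day 18, and was the only one of the 18 enzymes that rose in any comparison of days (log2 fold change 0.68 ± 0.19, adjusted p = 0.00856). Its rise was no longer called without replicate 1 of SSCi day 18, the library rich in mesenchyme RNA (0.45).

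The squalene and sterol part fell across most of its steps in SSCd and SSCi. Sqle, the squalene epoxidase, had 136, 96.9 and 94.0 CPM in RWB at day 25 against 215 and 201 CPM at day 18, and it fell by 0.93 ± 0.17 on the log2 scale (adjusted p = 0.000301). It fell by 1.38 ± 0.16 in SSCd at day 28 and by 1.28 ± 0.17 in SSCi at day 32 (adjusted p = 1.22e-06 and 7.68e-06). Nsdhl, a sterol dehydrogenase that helps remove methyl groups from the ring, had 70.3, 41.1 and 42.2 CPM in RWB at day 25, against 91.9 and 106 CPM at day 18. It had 24.2, 26.4 and 25.5 CPM in SSCd at day 28, against 107, 98.4 and 86.8 CPM at day 18, and 25.8, 23.8 and 26.1 CPM in SSCi at day 32, against 78.2 and 89.7 CPM at day 18. None of these pairs of groups overlapped, and the log2 fold changes were -0.95 ± 0.22, -1.94 ± 0.20 and -1.73 ± 0.22 (adjusted p = 0.00237, 4.93e-07 and 4.11e-06).

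Fdft1 (squalene synthase), Lss (lanosterol synthase), Cyp51 (lanosterol demethylase), Msmo1 (methylsterol oxidase) and Hsd17b7 (the ketosteroid reductase of the demethylation complex) fell in both SSCd and SSCi, with log2 fold changes of -0.75 to -1.42 at the last day. Without replicate 2 of SSCi day 18, Lss (-0.48) and Msmo1 (-0.99) were no longer called in SSCi, and Lss also lost its call without replicate 1 of SSCi day 32 (-0.62). Msmo1 had 101, 151 and 97.8 CPM in SSCd at day 28, against 391, 268 and 236 CPM at day 18. Its RWB values overlapped, at 320, 211 and 157 CPM at day 25 against 264 and 192 CPM at day 18. Ebp, the sterol isomerase, and Sc5d, the lathosterol oxidase, were called only in SSCd (-0.57 ± 0.21 and -0.86 ± 0.22, adjusted p = 0.042 and 0.00424), with -0.26 and -0.61 in SSCi, and the Ebp call was lost without 5 of the 6 libraries in turn. Whether these enzymes differed between SSCd and SSCi was not tested, since their last days differ. Tm7sf2, a sterol reductase, and Dhcr7, a reductase of the last steps, were called in no comparison of last day with day 18. Dhcr7 stayed between 66.8 and 119 CPM in all 24 libraries, with log2 fold changes of 0.02 ± 0.20 in RWB, -0.27 ± 0.18 in SSCd and -0.11 ± 0.20 in SSCi.

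**Figure D2:**
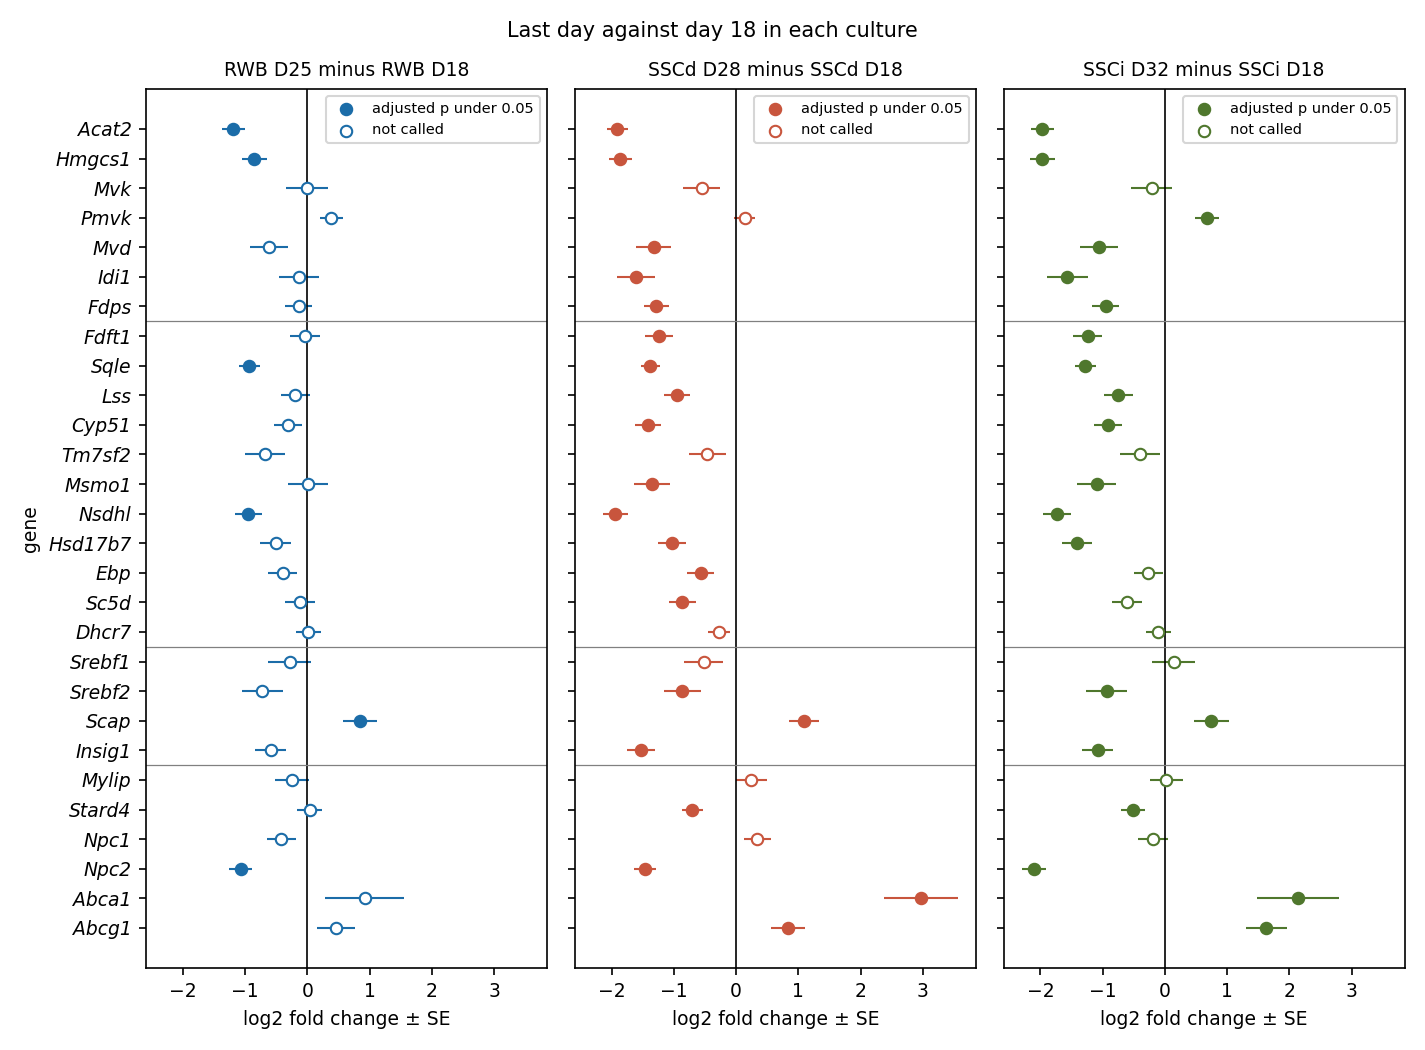
Log2 fold change of each of the 28 genes between the last day and day 18 in RWB, SSCd and SSCi, with its standard error; filled points have an adjusted p under 0.05 and grey lines part the mevalonate, squalene and sterol, regulator, and uptake, transport and export genes. In SSCd and SSCi the filled points among the enzymes lie left of 0 except Pmvk in SSCi at 0.68, while Abca1 reaches 2.97 and 2.14.

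In counts, 4 of 18 synthesis enzymes fell in RWB at day 25, 14 in SSCd at day 28 and 12 in SSCi at day 32. Of all genes tested, 14% were called lower in RWB, 17.1% in SSCd and 20.5% in SSCi, and the share of enzymes lay above these in SSCd and SSCi. The median log2 fold change over the 18 enzymes was -0.26 in RWB, -1.26 in SSCd and -1.003 in SSCi, beside medians over all genes of 0.061, 0.022 and -0.053. The 12 enzymes that fell in SSCi were all among the 14 that fell in SSCd, and the 4 that fell in RWB (Acat2, Hmgcs1, Sqle and Nsdhl) were among both. These comparisons share no library, but they come from the same fit and share its estimate of each gene's spread. The overlaps are therefore not independent, and the matching overlap over all genes is not given here. Without the 4 libraries with the largest mitochondrial shares, 7 enzymes fell in RWB. The share of all genes called lower in that fit is not given here, so this count is not set against it.

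In SSCd and RWB, most enzyme calls came in the first interval. In SSCi, the synthesis mean changed from day 18 by -0.54 at day 25 and by -0.93 at day 32. How evenly the decline was spread over the days was not tested, and the intervals differ in length between cultures. Between day 18 and day 22, 13 of 18 enzymes fell in SSCd and 5 fell in RWB (Acat2, Hmgcs1, Sqle, Nsdhl and Hsd17b7), where 5.13% and 4.88% of all genes were called lower. The median log2 fold change over the enzymes in these 4 days was -0.95 in SSCd and -0.53 in RWB. From day 22 to day 28, SSCd lost Acat2 (-0.77 ± 0.17, adjusted p = 0.00666) and Nsdhl (-0.67 ± 0.20, adjusted p = 0.0421), or 2 of 18 beside 5.05% of all genes. The Acat2 call was lost without replicate 2 of SSCd day 22, and the Nsdhl call without 5 of the 6 libraries in turn. From day 22 to day 25, 0 of 18 enzymes were called in RWB by edgeR, where 5.2% of all genes were called, and at an unadjusted p under 0.05 there were 1 higher and 1 lower. DESeq2 and limma-voom called 0 there too. In SSCi, 6 enzymes fell between day 18 and day 25 (Acat2, Hmgcs1, Sqle, Msmo1, Nsdhl and Hsd17b7), beside 10.9% of all genes, and this interval ended before serum was added. From day 25 to day 32, across the addition of serum, 4 fell (Acat2, Hmgcs1, Fdps and Nsdhl), beside 4.54% of all genes, and the Fdps and Nsdhl calls were lost without any 1 of the 5 libraries. Leaving out replicate 2 of RWB day 18 left 1 of the 5 RWB calls at day 22, and leaving out either SSCi day 25 library left 2 of the 6 calls at SSCi day 25.

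The regulators moved apart from each other. Insig1, the sensor that retains Scap and is itself induced by SREBP, had 144, 137 and 127 CPM in RWB at day 22, against 269 and 220 CPM at day 18. It had 94.9, 112 and 122 CPM in SSCd at day 28, against 355, 309 and 286 CPM at day 18, and 129, 133 and 148 CPM in SSCi at day 32, against 277 and 301 CPM at day 18. These groups did not overlap, and Insig1 fell by 0.85 ± 0.25, 1.53 ± 0.23 and 1.08 ± 0.25 on the log2 scale (adjusted p = 0.0319, 3.25e-05 and 0.00188). The RWB call at day 22 was lost without any 1 of the 5 libraries. In RWB at day 25 Insig1 had 199, 175 and 113 CPM, a log2 fold change of -0.59 ± 0.25 from day 18 that was not called.

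Scap, the escort, rose. It had 93.6, 137 and 139 CPM in RWB at day 25, against 74.4 and 63.1 CPM at day 18, and 137, 94.9 and 117 CPM in SSCd at day 28, against 34.9, 53.9 and 74.8 CPM at day 18. It had 97.4, 69.7 and 89.5 CPM in SSCi at day 32, against 46.6 and 55.4 CPM at day 18. All libraries of the last days lay above those of day 18, with log2 fold changes of 0.84 ± 0.28, 1.09 ± 0.24 and 0.75 ± 0.28 (adjusted p = 0.027, 0.00169 and 0.0402). The SSCd call was kept without each library in turn, whereas the RWB and SSCi calls were each lost without any of 4 of the 5 libraries. Srebf2, the factor chiefly tied to cholesterol synthesis, fell by 0.86 ± 0.30 in SSCd at day 28 and by 0.93 ± 0.33 in SSCi at day 32 (adjusted p = 0.0316 and 0.0323). limma-voom made neither Srebf2 call, each was lost without any of 4 single libraries, and the SSCd libraries overlapped, at 192, 144 and 212 CPM at day 28 against 182, 385 and 429 CPM at day 18. Srebf1, the factor chiefly tied to fatty acid synthesis, was called in no comparison of days.

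**Figure D3:**
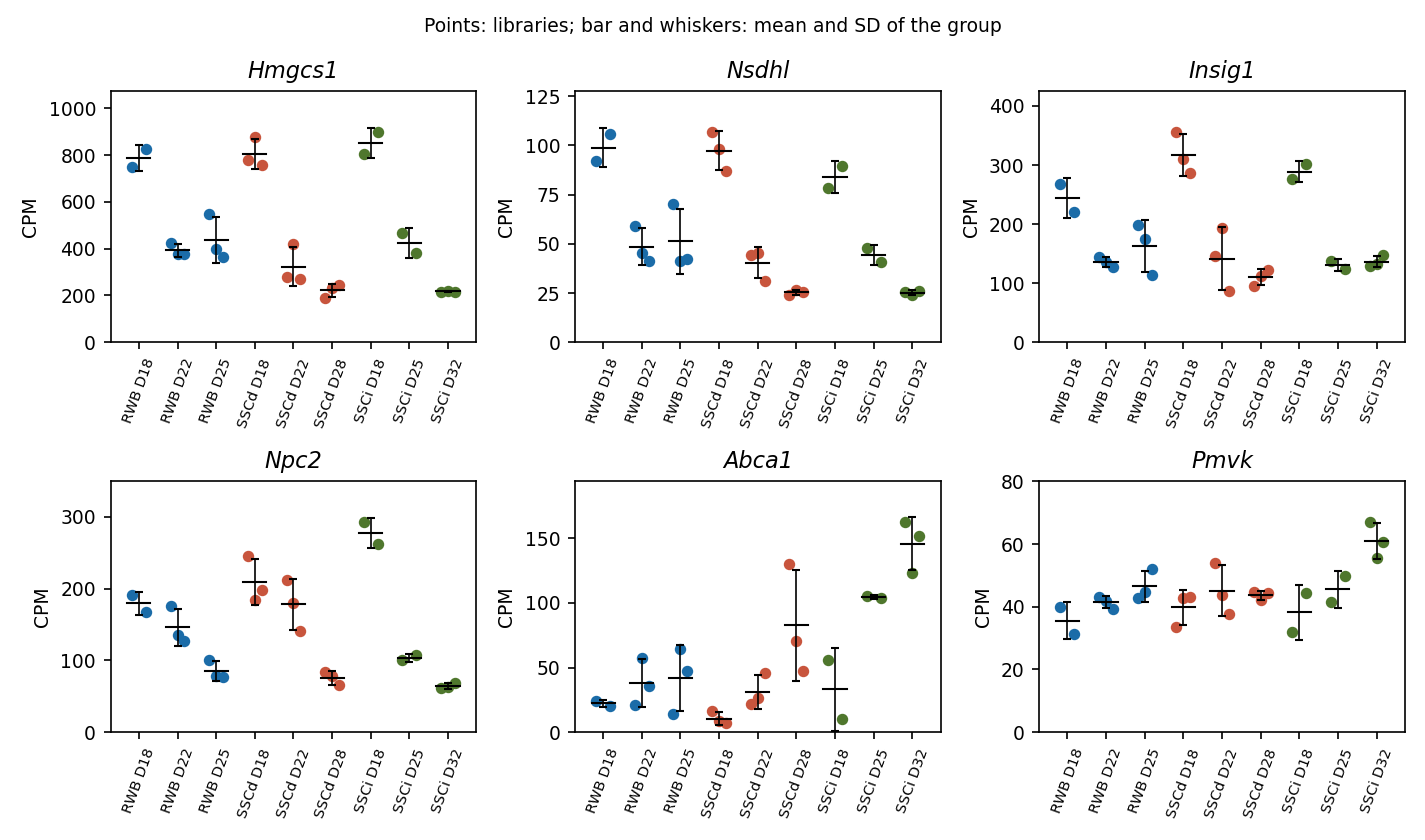
CPM of Hmgcs1, Nsdhl, Insig1, Npc2, Abca1 and Pmvk in each of the 24 libraries, in 9 groups by culture and day; bars and whiskers are the mean and SD of a group, and each panel starts at 0. Hmgcs1 and Nsdhl are highest at day 18 in every culture, Npc2 is lowest at the last day of every culture, and Abca1 spreads widely, from 14.3 to 64.3 CPM within RWB day 25.

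Uptake, transport and export genes went both ways. Npc2, which hands cholesterol to Npc1 in the lysosome, had 101, 77.7 and 77.4 CPM in RWB at day 25, against 191 and 168 CPM at day 18. It had 84.1, 77.8 and 65.5 CPM in SSCd at day 28, against 246, 185 and 198 CPM at day 18, and 61.4, 62.5 and 69.2 CPM in SSCi at day 32, against 292 and 262 CPM at day 18. Its groups did not overlap, and it fell by 1.07 ± 0.19, 1.47 ± 0.18 and 2.11 ± 0.19 on the log2 scale (adjusted p = 0.000245, 2.29e-06 and 8.89e-08). In SSCd it fell between day 22 and day 28 (-1.23 ± 0.17, adjusted p = 0.000228) and had a log2 fold change of -0.24 ± 0.17 between day 18 and day 22, the interval in which the synthesis enzymes fell. Npc1, its membrane partner, was called in no comparison, with log2 fold changes of -0.42 ± 0.24 in RWB, 0.34 ± 0.22 in SSCd and -0.20 ± 0.24 in SSCi at the last day.

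Stard4, a soluble carrier that moves cholesterol between membranes and is an SREBP target, had 61.1, 78.1 and 82.0 CPM in SSCd at day 28, against 128, 121 and 111 CPM at day 18 (log2 fold change -0.70 ± 0.18, adjusted p = 0.00402). It also fell in SSCi by 0.87 ± 0.22 at day 25 and by 0.52 ± 0.19 at day 32 (adjusted p = 0.00757 and 0.0424), and the later of these calls was lost without any 1 of the 5 libraries. The day 25 call was lost without replicate 1 of SSCi day 18, the library rich in mesenchyme RNA, or replicate 2 of SSCi day 25. It was also lost with only the groups compared. In RWB, Stard4 had 108 and 90.1 CPM at day 18, 70.6, 58.8 and 74.8 CPM at day 22, and 124, 96.6 and 83.4 CPM at day 25. The RWB day 22 libraries thus lay below those of both other days. Same-numbered libraries of RWB day 25 and day 22 deviated together, and with the replicate number as a block Stard4 was called higher at day 25 (0.57, adjusted p = 0.0474), where without the block it was not. Replicate 1 of both days had a large mitochondrial share, whose part in this was not tested. Mylip, the ligase that marks lipoprotein receptors for breakdown, was called in no comparison and stayed between 8.25 and 20.9 CPM.

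The exporters were called higher at the last day in the static cultures and were not called in RWB. Abca1, which loads cholesterol onto apolipoproteins, had 130, 70.6 and 47.2 CPM in SSCd at day 28, against 16.0, 8.53 and 7.11 CPM at day 18. The groups did not overlap, and Abca1 rose by 2.97 ± 0.59 on the log2 scale (adjusted p = 0.000575), the largest change of the 28 genes in any of the 14 comparisons. It had 162, 123 and 152 CPM in SSCi at day 32, against 55.7 and 10.6 CPM at day 18 (log2 fold change 2.14 ± 0.66, adjusted p = 0.015). The higher of the 2 SSCi day 18 values was that of the library rich in mesenchyme RNA. Without that library the log2 fold change was 3.77, and without the other it was 1.44 and no longer called. In RWB, Abca1 had 14.3, 64.3 and 47.2 CPM at day 25, against 24.4 and 20.0 CPM at day 18, so that the groups overlapped, with a log2 fold change of 0.92 ± 0.63 that was not called. Abcg1, the exporter to high density lipoprotein, had 74.6, 55.6 and 67.4 CPM in SSCi at day 32, against 14.0 and 28.5 CPM at day 18 (1.63 ± 0.33, adjusted p = 0.000559), and it had already risen at day 25, before serum (1.86 ± 0.35, adjusted p = 0.00101). Its rise in SSCd at day 28 (0.83 ± 0.28, adjusted p = 0.0241) was lost without replicate 1 of day 28 (95.4 CPM) or replicate 1 of day 18 (28.8 CPM). In RWB, Abcg1 had 52.8 to 64.9 CPM at day 25 against 34.1 and 48.5 CPM at day 18, without overlap, and was not called. Neither exporter was called in the direct tests of change between cultures, so a difference between RWB and static culture was not shown.

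In counts over the 6 handling genes, 2 rose (Abca1 and Abcg1) and 2 fell (Npc2 and Stard4) in SSCd at day 28, where 17.5% and 17.1% of all genes were called higher and lower. The same split was seen in SSCi at day 32, beside 16.2% and 20.5% of all genes. In RWB at day 25, 1 fell (Npc2) and 0 rose in edgeR, where 14.9% of all genes were called higher, with none higher at an unadjusted p under 0.05 and none in DESeq2 or limma-voom. The median log2 fold change over the 6 genes was -0.10 in RWB, 0.29 in SSCd and -0.086 in SSCi, a middle between opposite movements. Abca1 with a positive value and Npc2 with a negative one are the extremes of the list in all 3 cultures.

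**Figure D4:**
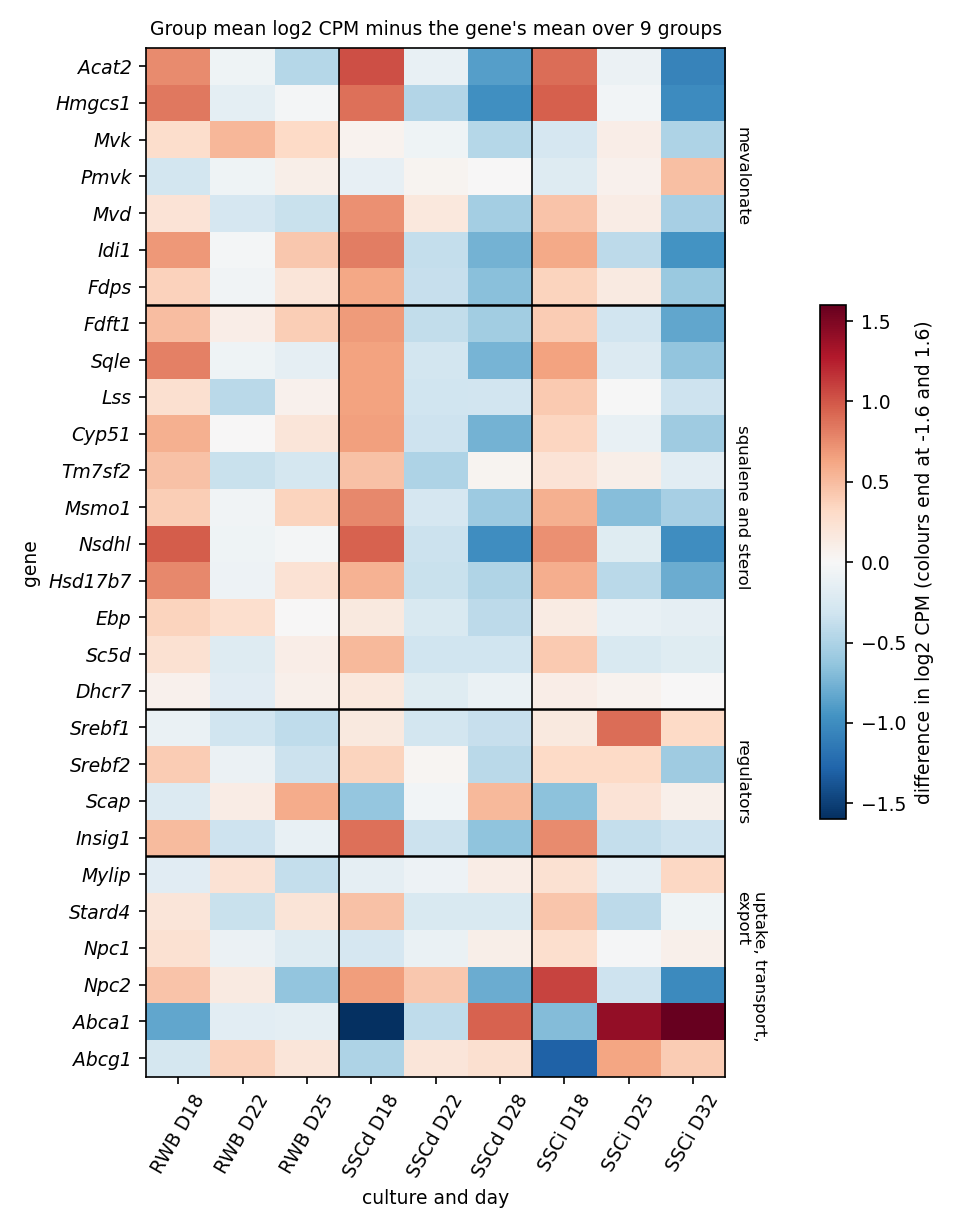
Group mean log2 CPM of each of the 28 genes (rows) minus that gene's mean over the 9 groups (columns, by culture and day); red is above and blue below, with colours ending at -1.6 and 1.6. Most synthesis rows turn from red at day 18 to blue at the last day of SSCd and SSCi, Pmvk and Scap run the other way, and Abca1 spans the widest range.

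Between cultures of the same day, the 28 genes gave calls at day 25 and none at day 18 or day 22. At day 18, 0 of 18 synthesis enzymes were called between RWB and SSCd, between SSCd and SSCi, or between RWB and SSCi, by edgeR, DESeq2 or limma-voom, and none reached an unadjusted p under 0.05. Of all genes, 0.488%, 3.86% and 5.23% were called in these comparisons. The medians over the enzymes were -0.13, 0.22 and 0.053 on the log2 scale. None of the 4 regulators or 6 handling genes was called either by edgeR. At an unadjusted p under 0.05, 0 regulators differed in any of these comparisons. Of the handling genes, 1 passed that level between RWB and SSCd (Npc1, 0.51 ± 0.24), 2 between RWB and SSCi (Abcg1, 0.96 ± 0.34, and Npc2) and 4 between SSCd and SSCi. These 4 were Abca1, Abcg1 (0.73 ± 0.32), Npc1 (-0.53 ± 0.24) and Npc2 (-0.40 ± 0.19). Abca1 had 16.0, 8.53 and 7.11 CPM in SSCd, against 55.7 and 10.6 CPM in SSCi, with overlap (log2 fold change -1.66 ± 0.61, adjusted p = 0.187). The higher SSCi value is that of the library rich in mesenchyme RNA. Npc2 stood at 191 and 168 CPM in RWB against 292 and 262 CPM in SSCi without overlap (log2 fold change -0.63 ± 0.21, adjusted p = 0.0956).

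At day 22, 15 of 18 enzymes had higher fitted values in RWB than in SSCd, with a median log2 fold change of 0.25 beside -0.0027 over all genes. None was called by edgeR, DESeq2 or limma-voom, where 1.89% of all genes were called, and 3 reached an unadjusted p under 0.05 (Fdft1, Ebp and Mvk). The nearest to a call was Fdft1, with 233, 167 and 147 CPM in RWB against 128, 149 and 105 CPM in SSCd (0.52 ± 0.22, adjusted p = 0.283). Its groups overlapped. The highest RWB value was replicate 1, which has a large mitochondrial share. Its part in the result was not tested.

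At day 25, RWB organoids, by then in serum medium, were set against SSCi organoids that had not received it, so that vessel, dissection and medium cannot be told apart. Msmo1 had 320, 211 and 157 CPM in RWB against 129 and 88.2 CPM in SSCi, without overlap, a log2 fold change of 1.07 ± 0.33 (adjusted p = 0.0474). Stard4 had 124, 96.6 and 83.4 CPM in RWB against 70.2 and 59.0 CPM in SSCi (0.65 ± 0.20, adjusted p = 0.0477). Srebf1 was lower, at 51.9, 109 and 93.3 CPM in RWB against 178 and 223 CPM in SSCi (-1.24 ± 0.35, adjusted p = 0.0308). These 3 were the calls among the 28 genes, beside 8.68% of all genes. That is 1 of 18 enzymes higher, beside 3.6% of all genes called higher. The Msmo1 and Stard4 calls were each lost without replicate 2 of RWB day 25, without the filter or in limma-voom. With only the groups compared, none of the 3 calls was kept. All 3 calls were lost without replicate 1 of RWB day 25 or either SSCi library. In that replicate the synthesis genes were highest and Srebf1 and Abca1 lowest of the 3 RWB libraries, beside its mitochondrial share of 13.1% and choroid plexus level of 1024 CPM, whose part in the result was not tested. Abca1 had 14.3, 64.3 and 47.2 CPM in RWB against 105 and 104 CPM in SSCi, without overlap, and its difference of -1.32 ± 0.60 was not called.

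Whether the change with days differed between cultures was tested directly. The change from day 18 to day 22 in RWB minus that in SSCd was positive in all 18 enzymes as fitted, with a median of 0.31 beside 0.0092 over all genes. None of the 18, and 0 of 16792 genes, was called by edgeR, and Fdft1 alone reached an unadjusted p under 0.05 (0.70 ± 0.33, adjusted p = 1). DESeq2 and limma-voom called none of the 18. The change from day 18 to day 25 in RWB minus that in SSCi had a median of 0.10 over the enzymes, and again none was called by these tools, where 2.88% of all genes were. Msmo1 had the largest value (1.23 ± 0.48, adjusted p = 0.167). Among the handling genes Stard4 had 0.90 ± 0.29 (adjusted p = 0.0943) and Abcg1 -1.40 ± 0.46 (adjusted p = 0.0971). The smaller fall of synthesis genes in RWB was therefore not shown to differ from that in the static cultures.

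Proliferation and progenitor genes fell over the same days. Of 10 proliferation genes, 10 fell at the last day of each culture, beside 14%, 17.1% and 20.5% of all genes called lower in RWB, SSCd and SSCi. Their summed level was 271 to 455 CPM in RWB at day 25, 139 to 305 CPM in SSCd at day 28 and 168 to 211 CPM in SSCi at day 32. At day 18 it was 2933 to 3351 CPM in RWB, 2062 to 3211 CPM in SSCd and 2005 to 2626 CPM in SSCi. The summed level of 6 retinal progenitor markers was 96.8 to 148 CPM in RWB at day 25 against 1607 to 1688 CPM at day 18, 212 to 272 CPM in SSCd at day 28 against 1211 to 2227 CPM, and 281 to 335 CPM in SSCi at day 32 against 2219 to 2940 CPM. The 6 rod photoreceptor markers rose in every culture, with 2124 to 2561 CPM in RWB, 2125 to 6215 CPM in SSCd and 4272 to 5110 CPM in SSCi at the last day, against at most 102 CPM at day 18. The 10 proliferation genes had a median log2 fold change at the last day of -3.27 in RWB, -3.66 in SSCd and -3.73 in SSCi. The part of these shifts in cell makeup in the sterol gene results was not tested.

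Over the 9 group means, the enzymes whose log2 CPM ran closest to the synthesis mean were Nsdhl (Pearson r = 0.992), Hmgcs1 (0.986), Cyp51 (0.984) and Sqle (0.976), which are themselves part of that mean. Insig1 followed it (0.927), while Abca1 (-0.841), Abcg1 (-0.731), Scap (-0.705) and Pmvk (-0.764) ran against it. Of 10935 genes outside the 28, 1.02% had a higher correlation than Insig1. The shares above Abca1, Abcg1, Scap and Pmvk were 91.5%, 83.4%, 81.8% and 85.6%, so many other genes ran against the mean as strongly. Outside the 28, the 10 genes most like the synthesis mean among 10935 genes whose mean log2 CPM was 3 or more included Nup54 (r = 0.996), a nuclear pore protein, Cbx5 (0.975), a heterochromatin protein, Tia1, Eml4, Srsf10, Utp18, Ilkap, Stag1 and Nono (0.968). These correlations are over 9 group means that share the same days, and they are given as a description.

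The rest of the pathway was read from gene lists. Of 6 further mevalonate branch genes, 2 rose and 0 fell at the last day of each culture, beside 14.9%, 17.5% and 16.2% of all genes called higher in RWB, SSCd and SSCi. These were Fntb (0.70, 0.70 and 0.63 in RWB, SSCd and SSCi), a subunit of protein farnesyltransferase, and Dhdds (0.86, 0.68 and 0.80), which makes dolichol chains. None of the other 4 was called by edgeR, and none of them reached an unadjusted p under 0.05. Of 12 further sterol regulators and enzymes, 11 were tested and 3 fell in RWB, 4 in SSCd and 3 in SSCi, beside 14%, 17.1% and 20.5% of all genes called lower, and none rose. Lbr, an inner nuclear membrane protein with the same sterol reductase activity as Tm7sf2, was lower at every later day than at day 18. It had 46.9, 44.7 and 30.2 CPM in RWB at day 25 against 107 and 100.3 CPM at day 18, and its log2 fold changes at the last day were -1.35 ± 0.18 in RWB, -1.57 ± 0.17 in SSCd and -1.38 ± 0.18 in SSCi (adjusted p = 1.2e-05, 5.7e-07 and 6.6e-06). Mbtps2, a protease that releases SREBP, fell by 0.52, 0.60 and 0.63, and Tmem97, a sterol-linked membrane protein, fell by 1.10 in RWB and 1.08 in SSCd.

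Among 10 further lipoprotein receptors and sterol carriers, 3 rose in RWB, 4 in SSCd and 3 in SSCi, and 3 fell in SSCi (Lipa, Lrp1 and Apod). Of all genes, 14.9%, 17.5% and 16.2% were called higher in these comparisons, and 20.5% lower in SSCi. At SSCi day 18, Apod was found only in the library rich in mesenchyme RNA. Whether the Lipa, Lrp1 and Apod calls hold without that library was not tested. Scarb1, the receptor for high density lipoprotein, had 162, 118 and 139 CPM in RWB at day 25 against 31.3 and 23.3 CPM at day 18, and rose by 2.36 ± 0.28 in RWB, 1.52 ± 0.23 in SSCd and 1.83 ± 0.27 in SSCi on the log2 scale (adjusted p = 3.9e-06, 4e-05 and 2.8e-05). Abcg4, a sterol transporter of neurons related to Abcg1, rose by 2.03 ± 0.26, 1.96 ± 0.22 and 2.82 ± 0.27 (adjusted p = 7.2e-06, 1.1e-06 and 1.6e-07). Vldlr, a receptor for triglyceride-rich lipoproteins, had 309, 431 and 370 CPM in SSCd at day 28 against 211, 163 and 173 CPM at day 18, and rose by 1.04, 1.02 and 1.00 in the 3 cultures. At day 22 it had 133, 124 and 133 CPM in RWB against 309, 323 and 204 CPM in SSCd (-1.10 ± 0.20, adjusted p = 0.0051), without overlap.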

How the data were processed

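Estimated counts per gene were deposited by the authors and are not normalized. Per the submitters' processing notes, the tools were limma 3.32.2, edgeR 3.13.9 and kallisto 0.42.5 and the build GRCm38.p5, with no role given. How transcripts were combined into genes is not given in the sources used here, and for the 28 genes the gene value was 0.775 to 1.09 times the sum of its transcripts. Counts were rounded, filtered with filterByExpr by group and scaled by TMM. A robust quasi-likelihood fit in edgeR 4.0.16 (R 4.3.3) used 9 group means over all 24 libraries, which share 1 estimate of the spread. Benjamini-Hochberg adjustment covered 16792 genes, at 0.05, in 14 comparisons and 2 differences of change. Log2 CPM have a prior count of 2. The SE of a log2 fold change is its size divided by the square root of its F statistic. Alternatives were DESeq2 1.42.0, limma-voom (limma 3.58.1), median-of-ratios size factors, no filter, only the groups compared, a replicate block and leaving out each library. The fit was tested on simulated counts. Leaving out the 4 libraries with the largest mitochondrial shares and a crossed replicate block were added after seeing the data.

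All 28 members are named, with up to 4 called genes of each further list by smallest p and the 10 genes most like the synthesis mean. From the genes this allows, the text gives a selection, and 1 of them is not reported here. The members and lists were chosen with earlier results of these data known. Symbols were matched for 33331 IDs. Sterol genes other than the 28 and the further lists were not analysed here. Replicate numbers come from the sample titles. Same-numbered libraries were taken as paired where there were at least 3 pairs and every correlation of deviations from group means was over 0.1. This held for RWB with SSCd at day 22 (0.43, 0.20 and 0.43), RWB day 25 with day 22, SSCd day 22 with day 18, and SSCd day 28 with day 22. Replicate 1 of RWB day 22, RWB day 25, SSCd day 18 and SSCd day 22 had the largest mitochondrial shares, whose part in these correlations was not tested. No label says what a number shares, and p-values measure the spread between these samples.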

Additional observations from a re-analysis of the deposited data

Results flagged for a closer look

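Vldlr was picked out because its change with days differed between cultures in a direct test. The change from day 18 to day 25 in RWB minus that in SSCi was 1.27 on the log2 scale (SE 0.33, edgeR quasi-likelihood test, adjusted p = 0.042). Vldlr had 194, 280 and 182 CPM in RWB at day 25 against 89.0 and 124 CPM at day 18, and 183 and 191 CPM in SSCi at day 25 against 222 and 218 CPM at day 18. It thus stood higher at day 25 in every RWB library and lower in every SSCi library.

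Apod, a lipocalin that carries small lipids, was picked out by the same test with a difference of 7.29 (SE 1.88, adjusted p = 0.042). It had 3.25, 0.561 and 2.62 CPM in RWB at day 25 against 0.199 and 0.337 CPM at day 18, and 0.141 and 0.375 CPM in SSCi at day 25 against 10.8 and 0 CPM at day 18. The value of 10.8 CPM is that of replicate 1 of SSCi day 18, the library with 6349 CPM of mesenchyme markers, and its part in the result was not tested.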

How the results depend on the processing

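No called value among the 28 genes changed sign under any alternative run. Of 4571 alternative values of differences that were not called, 350 had the other sign. Of the 18 synthesis enzymes, the number called between RWB and SSCi at day 25 was 1, and it was 0 without the filter, in limma-voom, with only the groups compared and without the 4 libraries with the largest mitochondrial shares, 3 in DESeq2, 4 with a replicate block, and 0 to 3 leaving out a library. The count for RWB day 22 against day 18 was 5, with 1 to 5 leaving out a library and 9 without the 4 libraries. For RWB day 25 against day 18 it was 4, with 4 to 6 leaving out a library, 2 with only the groups compared and 7 without the 4 libraries. For SSCd day 28 against day 22 it was 2, with 0 to 4 leaving out a library, 1 with median-of-ratios size factors, without the filter or in limma-voom, and 0 with only the groups compared. For SSCi day 25 against day 18 it was 6, with 2 to 4 leaving out a library and 2 with only the groups compared. For SSCi day 32 against day 25 it was 4, with 1 to 2 leaving out a library and 9 with only the groups compared. The cause of these shifts was not tested, and the share of all genes called under each alternative is not given here. The counts for SSCd day 22, SSCd day 28 and SSCi day 32 against day 18 (13, 14 and 13) ranged over 10 to 12, 13 to 14 and 10 to 13 leaving out a library. Of the single calls among the 28 genes, 18 of 21 in SSCd day 28 and 12 of 20 in SSCi day 32 against day 18 held without each library in turn, as did 5 of 6 in RWB day 25.

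The replicate block changed 1 call of the 28 genes among the paired comparisons, that of Stard4 between RWB day 25 and day 22, and no other. In the other comparisons libraries share only a number, and there the block gave a count of 1 (Msmo1, 1.37) in place of 0 for the day 25 change in RWB minus that in SSCi. Between RWB and SSCi at day 18 same-numbered libraries had a correlation of -0.189, and with crossed numbers the block called 0 of 18 enzymes.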

Other observations

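Among fatty acid synthesis genes, which are chiefly under Srebf1 as background, 4 to 6 of 10 were called lower and Me1 higher at the last day of each culture. In detail, 4 fell and 1 rose in RWB at day 25, 6 fell and 1 rose in SSCd at day 28, and 5 fell and 1 rose in SSCi at day 32. Of all genes, 14%, 17.1% and 20.5% were called lower and 14.9%, 17.5% and 16.2% higher in these comparisons. Scd1, a stearoyl-CoA desaturase, had 36.5, 24.2 and 56.0 CPM in RWB at day 25 against 97.7 and 66.7 CPM at day 18, and 23.1, 30.3 and 16.9 CPM in SSCd at day 28 against 115, 123 and 102 CPM at day 18. It had 59.0, 43.8 and 53.1 CPM in SSCi at day 32 against 194 and 164 CPM at day 18. It fell by 1.08 ± 0.33, 2.27 ± 0.31 and 1.79 ± 0.33 on the log2 scale (SE, edgeR, adjusted p = 0.017, 1e-05 and 0.00023), without overlap in any culture. Scd2, its paralogue, fell by 1.10 ± 0.21, 1.203 ± 0.19 and 0.77 ± 0.21 (adjusted p = 0.00042, 5.6e-05 and 0.0064). Me1, the cytosolic malic enzyme that supplies NADPH, rose, with 259, 120 and 162 CPM in RWB at day 25 against 47.1 and 49.0 CPM at day 18 (1.91 ± 0.51, adjusted p = 0.0078), and by 2.89 ± 0.46 in SSCd and 2.42 ± 0.52 in SSCi (adjusted p = 5.7e-05 and 0.0011). Reads shared between the near-identical stretches of Scd1 and Scd2 could move their estimates.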
